A study of Homo sapiens with 24 samples.

Results

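The genes described here are the subunits of the integrins and of the laminins, taken as every gene whose symbol on the array follows the pattern ITGA or ITGB with its letter or number, or LAMA, LAMB or LAMC with its number. The pattern found 57 probes for 38 of the 25992 genes with a symbol on the array: 18 integrin alpha subunits, 8 integrin beta subunits and 12 laminin subunits. The laminins comprised 5 alpha, 4 beta and 3 gamma chains. Each gene was represented by its brightest probe, and 14 genes had more than 1 probe. The samples were 2 established human lung adenocarcinoma lines, A549 and H1975. Cells received Pirfenidone at 0.75 mg/ml, or an equal volume of its solvent PBS, and were taken after 6 h or 24 h. Pirfenidone is an oral drug approved for idiopathic pulmonary fibrosis. With 3 samples in each of 8 groups, 24 one-color arrays were hybridized, 1 for each sample. The labels do not say whether samples of a group came from separate cultures, so the p-values measure the spread between these samples, which may be technical. Each line stands for itself and not for a tumor type.

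Integrins are receptors that span the cell membrane and consist of 1 alpha and 1 beta subunit, which decide together what the receptor binds. Laminins are large secreted proteins of the basement membrane, each made of 1 alpha, 1 beta and 1 gamma chain. In lung epithelium integrins hold cells to laminins, collagens and fibronectin, and integrins with the ITGAV subunit also release TGFβ from its latent complex.

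A level is given below as the normalized log2 signal. It is the processed signal of a probe on the log2 scale, less that array's 75th percentile, so that 0 is the brightness of the array's 75th percentile and a step of 1 is a factor of 2. A probe passed a comparison at a limma Benjamini-Hochberg adjusted p of 0.05 or less over all 23827 tested probes and a log2 difference of at least 1 in size. On an array 62.7% to 69.5% of all probes were well above background and none was saturated. The 24 arrays came from 4 runs and lay on 7 slides. Runs 1 and 3 held samples of both lines and no slide did. In run 3 the H1975 PBS sample of 24 h lay alone on its slide, and within a line the place of a sample on its slide was fixed by treatment and time. The 24 h pair of A549 samples from run 1 stood apart. All 10 genes of a mitosis list were higher with Pirfenidone in that pair (median log2 difference 1.60), and all 10 were lower in run 2 (median -0.30) and in run 3 (median -0.90). If these 2 arrays had been exchanged, each run 1 difference of A549 at 24 h given below would change its sign, and this was not tested. Counts of passing subunits for the line difference and for the drug change at 24 h are also given without this pair. So is the range of the drug changes in A549 at 24 h. Most other counts, and the ranges of A549 levels on PBS arrays, include it. The label of lung epithelium held in both lines, as all 6 epithelial markers (EPCAM, KRT7, KRT8, KRT18, KRT19 and CDH1) stood well above background on each of the 12 arrays of either line. Of these markers, 3 were higher and 1 was lower in H1975.

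Most subunits gave a signal in these cells. Of the 38 genes, 25 stood well above background on each of the 24 arrays. A probe was tested if it did so on every array of 1 or more groups, and 33 subunits met this. The 5 genes that were not tested were ITGA4, ITGA8, ITGAD, ITGAL and LAMB4. ITGAL and ITGAD pair with ITGB2 in leukocytes, and ITGA4 with ITGB1 or ITGB7 in lymphocytes. ITGAL was well above background on 3 arrays, all of A549, and ITGA8 and LAMB4 on 0 of 24. Among the tested genes the signal was patchy for ITGAM, the alpha subunit of the complement receptor of myeloid cells, which was well above background on all 12 A549 arrays and on 3 of 12 H1975 arrays. ITGAX, another myeloid subunit, was well above background on 11 arrays of A549 and 7 of H1975.

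The baseline of the 2 lines was compared over the 6 PBS arrays of each, as H1975 minus A549. Of the 33 tested subunits, 9 were higher in H1975 and 7 were lower. These counts stand beside 18.0% higher and 15.3% lower among all tested probes. Without the run 1 pair of A549 at 24 h the counts were again 9 and 7, with ITGB8 in the place of ITGB6. Among the subunits with the largest differences were ITGB3, LAMB3, ITGB2 and ITGA5, higher in H1975, and LAMC3, LAMB1, ITGAM and LAMA4, higher in A549. In these bulk samples fewer expressing cells and less RNA per cell cannot be told apart.

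**Figure D1:**
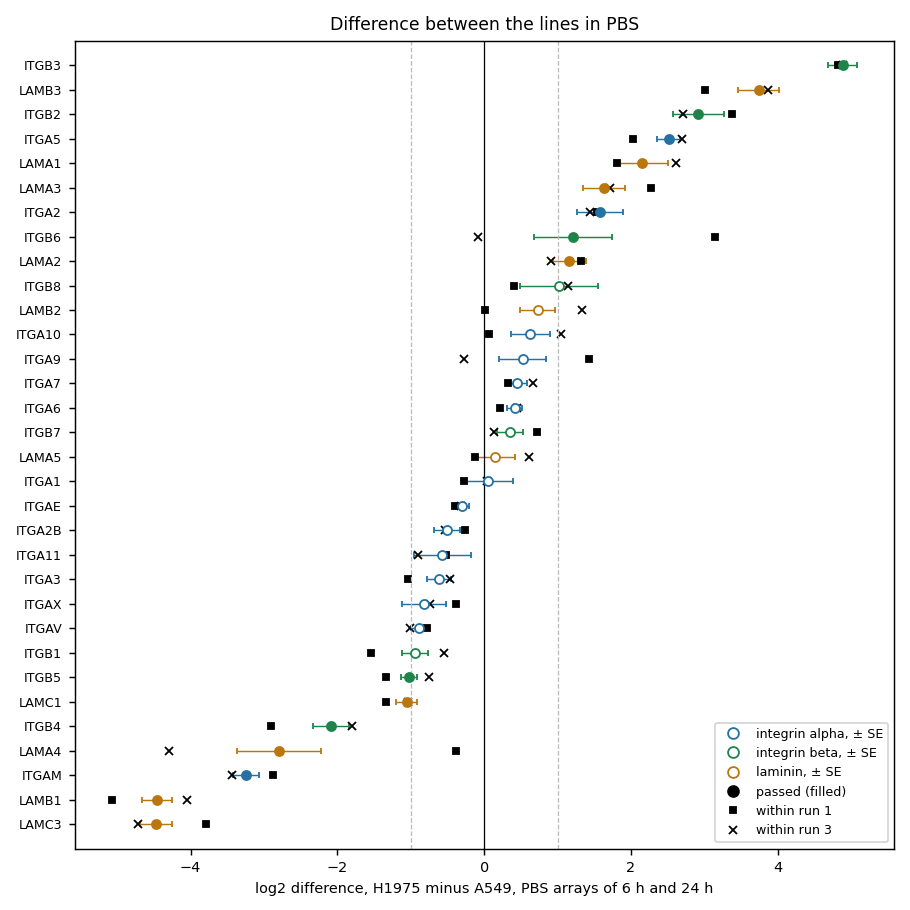
Difference between the lines for 32 of the 33 tested subunits. The horizontal axis is the log2 difference of H1975 minus A549 over the PBS arrays, 6 per line, circles with bars are limma estimates with their standard errors, filled circles passed, and black squares and crosses are the differences within run 1 and within run 3. ITGB3 lies at 4.89 at the top and LAMC3 at -4.47 at the bottom, and for ITGB6 and LAMA4 the values of runs 1 and 3 lie far apart.

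Among the integrins, ITGB3 had the largest difference. ITGB3 pairs with ITGAV into the classical vitronectin receptor, which is prominent on invasive and on angiogenic cells. Its level on the PBS arrays ran from -5.77 over a median of -5.26 to -5.16 in A549, and from -0.69 over -0.63 to -0.04 in H1975. The groups did not overlap, and the log2 difference was 4.89 with a standard error (SE) of 0.20, or 29.6-fold (limma adjusted p = 3.26e-14). Within run 1 it was 4.82 and within run 3 it was 4.89. ITGB2, the common beta subunit of the leukocyte integrins, ran from -5.32 over -4.93 to -4.35 in A549 and from -2.60 over -2.25 to -0.84 in H1975. It was 2.91 higher in H1975 (SE 0.35, limma adjusted p = 4.04e-07), by 3.37 within run 1 and 2.71 within run 3, without overlap. ITGA5, which forms the main fibronectin receptor with ITGB1, ran from -1.37 over -1.08 to -0.59 in A549 and from 1.26 over 1.49 to 1.74 in H1975. The A549 range of ITGA5 covers 5 arrays, because its spots on the PBS array of run 3 at 24 h were marked as outliers. The difference was 2.51 (SE 0.16, limma adjusted p = 8.52e-11), again without overlap, with 2.02 in run 1 and 2.69 in run 3. ITGA2, a collagen-binding alpha subunit, was 1.58 higher in H1975 (limma adjusted p = 2.03e-04), with 1.54 in run 1 and 1.44 in run 3. Its groups overlapped, 5 of 6 A549 arrays were well above background, and its call was absent in 2 of 12 alternative settings.

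The integrins higher in A549 were ITGAM, ITGB4 and ITGB5. ITGAM ran from -4.68 over -4.50 to -4.33 in A549 and from -8.36 over -7.71 to -7.06 in H1975, where 1 of 6 arrays was well above background. At 24 h, where no H1975 PBS array was, the signal was at least 6.64-fold higher in A549, a bound set by the lowest signal that counted as well above background on the H1975 arrays. ITGB4, the subunit that anchors hemidesmosomes to laminin together with ITGA6, ran from 2.29 over 2.48 to 3.91 in A549 and from 0.15 over 0.66 to 1.18 in H1975. Its log2 difference was -2.09 (SE 0.24, limma adjusted p = 2.6e-07), with -2.91 in run 1 and -1.80 in run 3. ITGB5, another partner of ITGAV, was lower in H1975 by a smaller step of -1.02 (limma adjusted p = 6.02e-08), and its call was lost with 3 of 12 arrays left out in turn. ITGAV (-0.89) and ITGB1 (-0.94), the subunits shared by most receptors of epithelial cells, had adjusted p values of 2.77e-07 and 1.05e-04 by limma, and both stayed short of the log2 difference of 1. ITGA3 at -0.61 and ITGA6 at 0.41, the alpha subunits of the laminin receptors, were likewise past the adjusted p alone, as were ITGAE at -0.30, ITGA7 at 0.45, ITGA2B at -0.51, ITGAX at -0.82 and ITGA10 at 0.63. Counted by the adjusted p alone, 13 subunits were higher in H1975 and 13 lower, where 37.4% and 32.8% of all probes were. The remaining integrins, ITGA1, ITGA9, ITGA11, ITGB7 and ITGB8, missed the adjusted p, with log2 differences between -0.57 and 1.01. ITGB8 was the highest of these, and without the run 1 pair of A549 it was 1.51 and passed (limma adjusted p = 0.00812). ITGB8 was well above background on 2 of the 6 A549 PBS arrays, so this difference is partly against signals near background.

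ITGB6 needs its runs beside it. ITGB6 is the epithelial partner of ITGAV that activates latent TGFβ. Its log2 difference of 1.21 lay at the threshold (SE 0.53, limma adjusted p = 0.0497), and it was 3.14 within run 1 and -0.09 within run 3. The relation between the lines therefore did not hold within both runs, and the call was lost with 8 of 12 arrays left out in turn. Without the run 1 pair of A549 it was 1.16 (limma adjusted p = 0.0907).

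The laminins split by chain. LAMA3 and LAMB3 are chains of the laminin to which epithelial cells attach through ITGA3 and ITGB4 receptors. LAMB3 ran from 0.42 over 1.06 to 2.31 in A549 and from 4.81 over 5.00 to 5.54 in H1975, 3.74 higher (13.3-fold, SE 0.28, limma adjusted p = 6.14e-10). The groups did not overlap, and the difference was 3.01 in run 1 and 3.87 in run 3. LAMA3 was 1.63 higher (SE 0.29, limma adjusted p = 4.79e-05), with 2.27 and 1.71 in the same runs. LAMA1, an alpha chain best known from the embryo, was not well above background on any A549 PBS array and ran from -7.38 over -6.07 to -5.06 in H1975. It was at least 1.61-fold higher in H1975 (limma adjusted p = 2.77e-05 for the measured difference). This bound is short of the 2-fold limit, so its place among the 9 rests on A549 signals not well above background, and the call was lost with another background correction, at 0.30 with an adjusted p of 0.46. LAMA2, the alpha chain of muscle basement membranes, was 1.16 higher (limma adjusted p = 1.59e-04), with 1.32 in run 1 and 0.90 in run 3. Its call was absent in 2 of 12 alternative settings.

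The chains higher in A549 were LAMB1, LAMC1, LAMC3 and LAMA4. LAMB1 and LAMC1 are the beta and gamma chains of the widespread laminins. LAMB1 ran from 3.96 over 4.13 to 4.60 in A549 and from -0.77 over -0.12 to 0.05 in H1975, a difference of -4.46 (22.0-fold, SE 0.20, limma adjusted p = 2.68e-13). It was -5.07 in run 1 and -4.04 in run 3, without overlap. LAMC1 was -1.06 (limma adjusted p = 3.1e-06), close to the fold limit, and its call was lost with 3 of 12 arrays left out in turn. LAMC3, a gamma chain found in few basement membranes, ran from -2.77 over -1.97 to -1.72 in A549 and from -6.92 over -6.64 to -6.22 in H1975. Its difference was -4.47 (22.2-fold, SE 0.22, limma adjusted p = 6.48e-13), with -3.79 in run 1 and -4.72 in run 3. LAMA4, the alpha chain of vessel walls and fat, ran from -5.51 over -3.17 to -2.70 in A549 and from -7.35 over -6.59 to -5.00 in H1975, where 4 of 6 arrays were well above background. The difference of -2.80 (SE 0.57, limma adjusted p = 2.36e-04) did not hold alike within the runs, with -4.30 in run 3 and -0.39 in run 1. LAMB2, the beta chain of neuromuscular and glomerular laminins, was 0.73 higher in H1975, past the adjusted p alone (limma adjusted p = 0.0109). Over 12 alternative settings and each of the 12 arrays left out in turn, ITGA5, ITGB2, ITGB3, ITGB4, LAMA3, LAMB1, LAMB3 and LAMC3 passed every time.

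For a few laminin genes the line difference depended on which probe was read. The sequences of the LAMA5 and LAMB1 probes are shown because their probes disagreed most, and each line gives the first 30 bases of a 60-base probe, 5′ to 3′. The array files place the LAMA5 probes on the minus strand of hg19 at chr20:60920556-60920615 for A_33_P3384442, the brightest, and chr20:60885302-60885361 for A_23_P109269. The LAMB1 probes lie on the minus strand at chr7:107564411-107564470 for A_23_P94030, the brightest, and chr7:107643398-107643457 for A_33_P3370930. The array names a RefSeq transcript for A_23_P109269 of LAMA5 and A_23_P94030 of LAMB1. For A_33_P3384442 of LAMA5 and A_33_P3370930 of LAMB1 it names an Ensembl transcript, so the probes of a gene may not read the same transcripts. Exons and introns are not named, as no annotation of hg19 was used here.
LAMA5 probe A_33_P3384442: tgatgtgtgcctgtagttcgagctactccg
LAMA5 probe A_23_P109269: caggagctacactgcctgatgtgggcctgg
LAMB1 probe A_23_P94030: agactggaaggagaagtccgttcactccta
LAMB1 probe A_33_P3370930: ttgaacatttgccttttttcccctcctttc

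LAMA5 is the alpha chain of adult epithelial basement membranes. Its brightest probe ran from 3.94 over 4.30 to 4.84 in A549 and from 3.86 over 4.47 to 5.14 in H1975, and the groups overlapped (log2 difference 0.15, SE 0.27, limma adjusted p = 0.647). Its other probe ran from 0.51 over 0.80 to 1.44 in A549 and from -3.97 over -2.94 to -2.31 in H1975, without overlap, and was -3.84 in H1975 (SE 0.19, limma adjusted p = 5.99e-13). By the brightest probe, for which the array names an Ensembl transcript, the gene did not pass. By the other, for which it names a RefSeq transcript, the gene passed as lower in H1975. Both probes stood well above background on all 24 arrays, and which of them reads LAMA5 RNA was not tested. The counts of subunits lower in H1975 use the brightest probe and so leave LAMA5 out. The other tested probe of LAMB1 gave 0.18 (SE 0.20, limma adjusted p = 0.432), against -4.46 for the brightest. The other tested probe of LAMA4 gave -0.08, against -2.80. The LAMA4 probes A_33_P3308744 and A_33_P3308749 were not tested. They were well above background on 7 and 8 of 12 A549 arrays and on 0 of 12 H1975 arrays. The 2 tested probes of ITGA6, LAMA3, LAMB2 and LAMC3 had the same sign, though the other probe of LAMC3 was well above background on 0 of 12 H1975 arrays, so that its difference has no measured size.

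**Figure D2:**
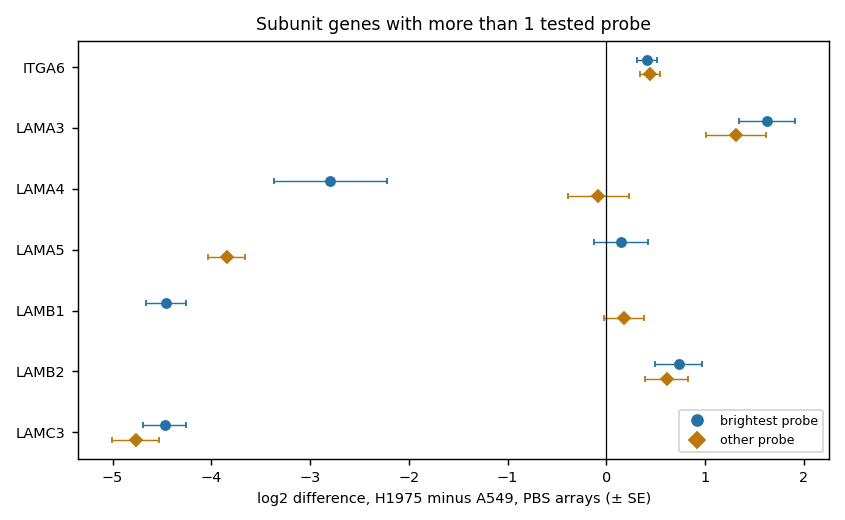
Difference between the lines for subunit genes with more than 1 tested probe. The horizontal axis is the log2 difference of H1975 minus A549 on the PBS arrays with its standard error, circles are the brightest probe of a gene and diamonds its other probe. The probes of LAMA5, LAMB1 and LAMA4 lie far apart, at 0.15 and -3.84, -4.46 and 0.18, and -2.80 and -0.08, and those of ITGA6, LAMA3, LAMB2 and LAMC3 lie close together, where the other probe of LAMC3 was not well above background in H1975.

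Promoters were read because several subunits were higher in the same line. RefSeq windows of GRCh38.p14, from 250 bases before to 30 bases after a gene's start, were at hand for 26 of the 38 genes, among them 6 of those higher and 5 of those lower in H1975. The AP-1 motif TGANTCA, searched on both strands, was in 7.36% of all 34796 windows. It was in the windows of 3 subunits, LAMB3, ITGA5 and LAMA3, all of them among the 6 genes higher in H1975, and in 0 of the 5 that were lower. LAMB3 has 3 listed starts and so more than 1 chance of a match. The shares of all windows are counted per window and the subunits per gene, so the 2 are not in the same unit. The GC box GGGCGG was in 44.0% of all windows, in 4 of the 6 and in 4 of the 5. The TEAD motif GGAATG was in 13.3% of all windows, in 2 of the 6 and in 0 of the 5, and the SMAD motif CAGAC was in 42.7%, in 2 of the 6 and in 3 of the 5. In the windows printed here no AP-1 match shared letters with another of these motifs. The windows with an AP-1 match are chr1:209651345-209651624 on the minus strand for LAMB3, chr12:54419237-54419516 on the minus strand for ITGA5 and chr18:23872770-23873049 on the plus strand for LAMA3. They are printed 5′ to 3′ along the gene, with the match in capitals. The match starts 67 bases before the gene's start in LAMB3 and 6 bases before it in ITGA5, and the 2 matches of LAMA3 start 125 and 69 bases before it. A match in these letters is a description and not a measured site.
LAMB3 promoter: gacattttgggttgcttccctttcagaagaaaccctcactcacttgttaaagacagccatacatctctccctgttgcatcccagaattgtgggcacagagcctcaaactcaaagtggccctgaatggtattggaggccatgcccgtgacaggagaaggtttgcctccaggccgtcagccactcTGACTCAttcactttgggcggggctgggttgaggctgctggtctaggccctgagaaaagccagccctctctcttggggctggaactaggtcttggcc
ITGA5 promoter: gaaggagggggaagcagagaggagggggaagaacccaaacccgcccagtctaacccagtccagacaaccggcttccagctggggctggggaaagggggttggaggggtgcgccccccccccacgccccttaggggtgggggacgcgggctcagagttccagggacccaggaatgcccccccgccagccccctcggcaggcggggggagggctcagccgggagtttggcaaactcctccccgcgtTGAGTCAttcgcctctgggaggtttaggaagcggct
LAMA3 promoter: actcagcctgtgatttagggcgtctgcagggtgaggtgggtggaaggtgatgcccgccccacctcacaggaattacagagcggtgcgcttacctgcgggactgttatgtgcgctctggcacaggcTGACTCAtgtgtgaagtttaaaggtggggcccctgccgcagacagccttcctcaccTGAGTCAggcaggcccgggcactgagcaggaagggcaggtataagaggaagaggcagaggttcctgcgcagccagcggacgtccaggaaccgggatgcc

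The partners of the subunits differed between the lines as well, to be read beside the 18.0% of all probes that were higher and the 15.3% that were lower. Of 20 tested ligands of integrins other than laminins, 8 were higher and 8 lower in H1975. Tenascin (TNC) was at least 301-fold higher in H1975, and the fibrinogen chains FGG, FGB and FGA were at least 347-fold, 101-fold and 58.5-fold lower. Of 16 tested partners of laminins in basement membranes and hemidesmosomes, 2 were higher and 7 lower. The type IV collagens COL4A2 (-9.57) and COL4A1 (-6.96) were lower in H1975, as were the nidogens, which link laminin and collagen networks. NID2 differed by -2.88, and NID1 was at least 76.0-fold lower at 24 h, where no H1975 PBS array was well above background for it. Of 30 tested genes of adhesion plaques and integrin activation, 1 was higher and 7 lower. The largest of these differences were APBB1IP, at least 73.0-fold lower, TNS4 (-3.89), SRC (-2.45) and PARVB (-2.03). APBB1IP recruits talin to integrins, TNS4 and PARVB sit at their cytoplasmic tails, and SRC signals from the plaque.

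Markers of other cell types were read because several subunits are typical of leukocytes, platelets or mesenchymal cells. In H1975 the fibroblast markers COL1A2 and PDGFRB were at least 286-fold and 5.70-fold higher, and the endothelial marker PECAM1 at least 4.37-fold. The platelet marker PF4 and the fibroblast marker LUM were at least 15.5-fold and 5.04-fold higher in A549. The summed linear level of the 5 fibroblast markers, in units of the array's 75th percentile, ran from 0.241 to 0.964 on the A549 arrays, where 3 of them were on no array well above background, and from 2.52 to 8.26 on the H1975 arrays, where 2 of them were on none. The 4 leukocyte markers summed to 0.350 to 1.47 in A549 and 0.483 to 1.58 in H1975, and the 3 platelet markers to 0.088 to 0.170 and 0.021 to 0.048. The 3 endothelial markers summed to 0.019 to 0.029 and 0.059 to 0.102, and their VWF and the epithelial CDH1 are also in the list of ligands. Their part in the levels of ITGB2, ITGAM, ITGB3 and the laminins was not tested.

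The change with Pirfenidone was the other question of the design. ITGB3 was the 1 subunit of 33 that passed in a drug comparison. It was higher with Pirfenidone than with PBS in H1975 cells at 24 h. Over all probes 1.89% passed in that comparison. In A549 cells 0 subunits passed at either time, where 0.176% of all probes did at 6 h and 0.0126% at 24 h. In H1975 cells 0 passed at 6 h, where 0.491% of all probes did. The number of subunits with an unadjusted limma p under 0.05 was 0, 0 and 1 in these 3 comparisons, where 6.01%, 0.953% and 11.0% of all probes were. It was 8 of 33 in H1975 at 24 h, near the share of 22.0% of all probes.

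**Figure D3:**
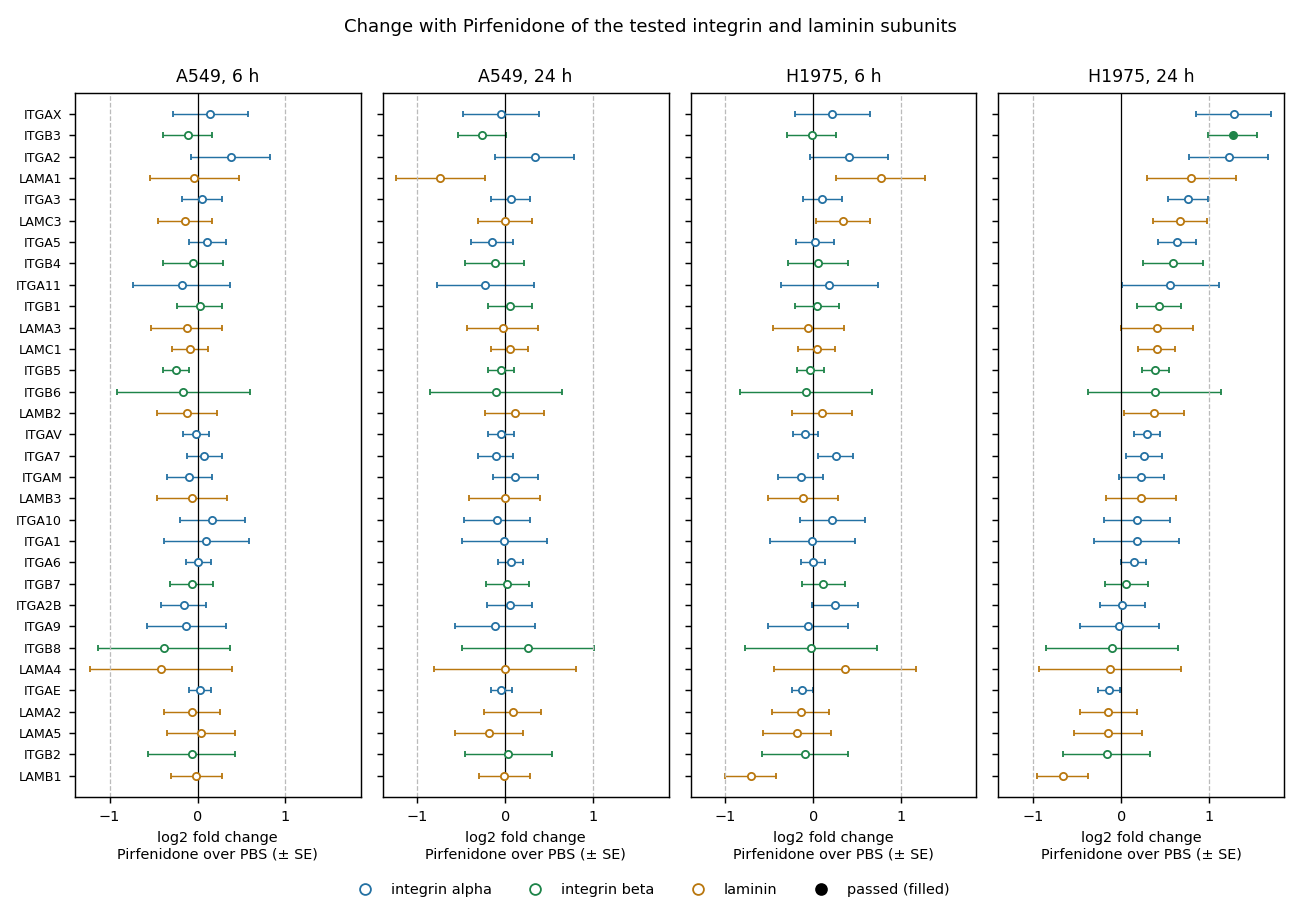
Change with Pirfenidone of 32 of the 33 tested subunits in the 4 comparisons. The horizontal axis is the log2 fold change of Pirfenidone over PBS with its standard error, 3 arrays per group, subunits are ordered by their change in H1975 at 24 h, and the filled circle passed. Estimates in A549 and in H1975 at 6 h lie around 0, and in H1975 at 24 h most lie above 0, with ITGB3 at 1.27 as the one that passed and LAMB1 lowest at -0.67.

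In H1975 at 24 h ITGB3 was -0.67, -0.64 and -0.61 on the PBS arrays of runs 1, 3 and 4, and 1.02, 0.36 and 0.49 on the Pirfenidone arrays. All 3 Pirfenidone arrays lay above the PBS arrays. The log2 fold change was 1.27 (2.41-fold, SE 0.28, limma adjusted p = 0.0135), with 1.70, 1.01 and 1.10 within the runs and an adjusted p of 0.00419 with run as a block. The call was lost when the Pirfenidone sample of replicate 3, from run 1, was left out (1.07, limma adjusted p = 0.096). At 6 h ITGB3 was -0.69, -0.04 and -0.04 with PBS and -0.76, -0.01 and -0.05 with Pirfenidone, in the same order of runs, and the groups lay on each other. Its difference between 24 h and 6 h of PBS was -0.39 (limma adjusted p = 0.735), with the fall in runs 3 and 4 and not in run 1. In runs 3 and 4 a part of the gap at 24 h is thus a lower PBS level. In A549, where ITGB3 was dim, it was -5.22, -5.22 and -5.30 with PBS and -5.86, -5.17 and -5.51 with Pirfenidone at 24 h, in runs 1, 2 and 3.

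The difference of the drug change between the lines at 24 h was 1.54 for ITGB3 (SE 0.39) and missed the threshold (limma adjusted p = 0.107). It passed with run as a block (adjusted p = 0.0274) and not with slide as a block (adjusted p = 0.0678), and without the A549 pair of run 1 it was 1.35 with an adjusted p of 0.426. In the fit with slide as a block the H1975 PBS sample alone on its slide adds nothing. In all 0 subunits passed for a difference between the lines at 6 h or at 24 h, where 0.0336% and 0.193% of all probes did, and 0 and 5 had an unadjusted limma p under 0.05, beside 2.63% and 12.2% of all probes. The difference between the drug change at 24 h and at 6 h in H1975 was 1.29 for ITGB3 (limma adjusted p = 0.523). No subunit passed there or in A549, where 0.00420% and 0.0294% of all probes did, and 1 and 0 had an unadjusted limma p under 0.05, beside 5.86% and 3.04% of all probes.

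Other alpha subunits lay higher with Pirfenidone in H1975 at 24 h without passing. ITGA3, a laminin receptor subunit, was 1.60, 1.59 and 1.63 with PBS in runs 1, 3 and 4 and 2.36, 2.39 and 2.34 with Pirfenidone. The groups did not overlap, and the log2 fold change of 0.76 (SE 0.22) had a limma adjusted p of 0.0507. Without the A549 pair of run 1 at 24 h, which enters only through the common estimate of the spread, ITGA3 had a limma adjusted p of 0.00332. Its change stayed short of the fold limit. ITGA5 was 1.26, 1.47 and 1.51 with PBS and 1.93, 2.12 and 2.10 with Pirfenidone, again without overlap. Its log2 fold change was 0.64 (SE 0.21, limma adjusted p = 0.0818). ITGA2 was -4.67, -5.61 and -4.78 with PBS and -2.84, -4.52 and -4.03 with Pirfenidone. The lowest Pirfenidone array of ITGA2 lay just above the highest PBS array, and its log2 fold change of 1.22 (SE 0.45) had a limma adjusted p of 0.111. ITGAV was 2.17, 1.78 and 2.06 with PBS and 2.43, 2.19 and 2.28 with Pirfenidone, a difference of 0.29 (limma adjusted p = 0.253). ITGAX had a log2 fold change of 1.28 (limma adjusted p = 0.0816), with 5 of 6 arrays well above background.

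Among the beta subunits ITGB5 was 1.65, 2.13 and 2.11 with PBS and 2.21, 2.49 and 2.35 with Pirfenidone. The change was 0.39 (SE 0.15, limma adjusted p = 0.13), small and without overlap. Laminin chains went both ways. LAMC3 was -6.22, -6.46 and -6.62 with PBS and -5.82, -5.87 and -5.61 with Pirfenidone, without overlap, a log2 fold change of 0.67 (SE 0.31, limma adjusted p = 0.209). LAMC1 was 0.77, 1.18 and 1.24 with PBS and 1.28, 1.48 and 1.65 with Pirfenidone, a log2 fold change of 0.40 (SE 0.21, limma adjusted p = 0.27). LAMB1 was the lowest of the 33. It was -0.74, -0.17 and -0.07 with PBS and -1.72, -0.60 and -0.67 with Pirfenidone. The groups overlapped, with run 1 lowest in both, and the log2 fold change was -0.67 (SE 0.29, limma adjusted p = 0.181), with -0.98, -0.43 and -0.60 within runs 1, 3 and 4.

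By its brightest probe LAMB1 was lower with Pirfenidone in every H1975 pair already at 6 h. It was -0.77, 0.05 and 0.03 with PBS and -1.45, -0.69 and -0.69 with Pirfenidone. Within runs 1, 3 and 4 the difference was -0.67, -0.74 and -0.72, and over the groups -0.71 (SE 0.29, limma adjusted p = 0.332). With run as a block and no fold limit, it was the 1 subunit that passed at 6 h (SE 0.11, adjusted p = 0.00222), where 2.35% of all probes passed as lower. The call thus rests on taking run into account, a setting chosen after the data were seen. The other tested probe of LAMB1 did not follow, with 0.13 at 6 h (limma adjusted p = 0.962) and -0.09 at 24 h (limma adjusted p = 0.908). LAMB1 in A549 was 4.60, 4.24 and 4.01 with PBS and 4.25, 4.44 and 4.11 with Pirfenidone at 24 h, and the groups overlapped.

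**Figure D4:**
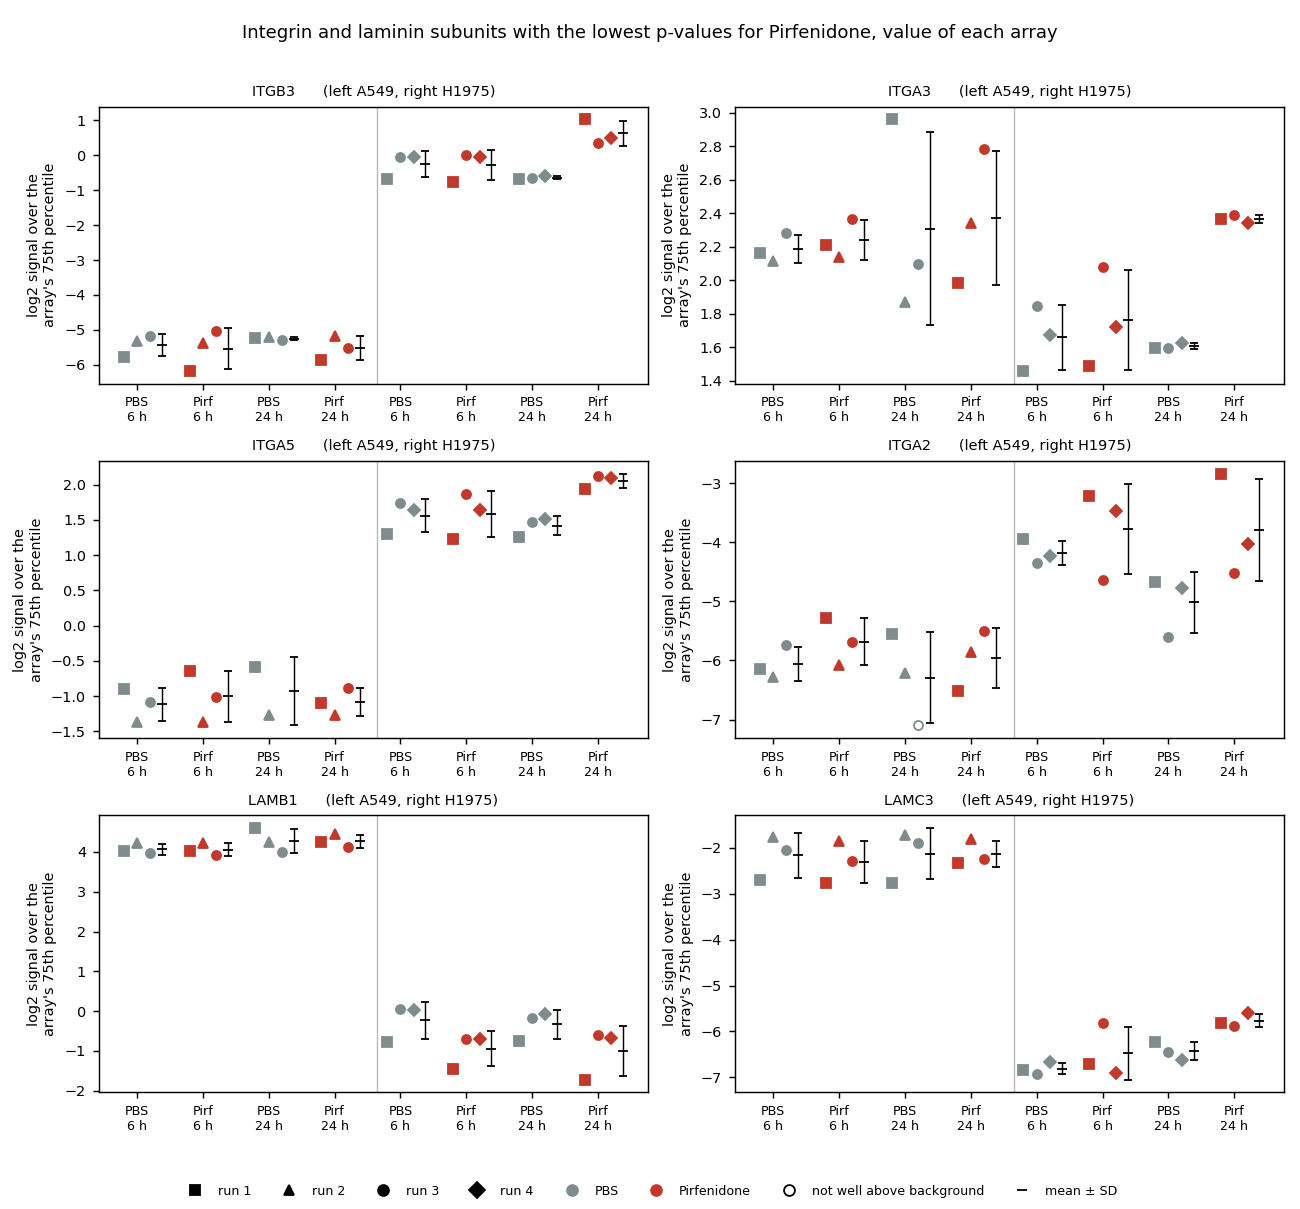
Level of 6 subunits on each array. The vertical axes are normalized log2 signals, each with its own range, gray marks are PBS and red marks Pirfenidone (Pirf), the marker's shape gives the run, an open mark was not well above background, and black bars are the mean and SD of the 3 arrays. In H1975 at 24 h the Pirfenidone arrays of ITGB3, ITGA3, ITGA5, ITGA2 and LAMC3 lie above the PBS arrays and those of LAMB1 are lower within each run, and ITGA5 has 2 marks for A549 PBS at 24 h since 1 array has no value.

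With run as a block and by the adjusted p alone, 12 of the 33 subunits were higher with Pirfenidone in H1975 at 24 h and 1 was lower, where 11.7% of all probes were higher and 10.1% lower. This setting was chosen after the data were seen. Among the 12 were ITGB3, ITGA3, ITGAX, ITGA5, ITGA2, ITGB5, LAMC3, LAMC1, ITGB1, ITGA11 and LAMA3, with log2 fold changes from 0.39 to 1.28, and the 1 that was lower was LAMB1. ITGA11 is a collagen receptor subunit of mesenchymal cells. Under run as a block with the fold limit kept, 3 passed, ITGB3, ITGA2 and ITGAX. With slide as a block and by the adjusted p alone, 6 were higher and 1 lower, where 5.80% and 5.10% of all probes were. ITGB3, ITGA5, ITGB5, ITGB1 and LAMA3 were among the 6, LAMB1 was the 1 that was lower, and ITGB3 alone passed with the fold limit (adjusted p = 0.0231). The adjusted p was then 0.108 for ITGA3, 0.0866 for ITGA2 and 0.0847 for ITGAX. With slide as a block the PBS sample of run 3 at 24 h, alone on its slide, adds nothing to the estimate. Results with slide and with run as a block thus rest on different numbers of PBS arrays. In all 21 subunits were higher with Pirfenidone in each of the 3 runs and 3 were lower in each, namely LAMB1, ITGAE and ITGB2, where 34.6% and 30.6% of all probes were. Without overlap between the groups 11 lay higher and 0 lower, beside 16.3% and 15.6% of all probes. The median log2 fold change of the 33 was 0.29, beside 0.02 over all tested probes. Other probes did not always follow, since the other probe of LAMA3 was -0.72 (limma adjusted p = 0.348) against 0.41 for the brightest, and that of LAMA5 was -0.60 (limma adjusted p = 0.185).

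Genes of other groups moved in the same comparison. In H1975 at 24 h 8 of 10 mitosis genes passed as lower with Pirfenidone (median log2 fold change -1.24), among them AURKA at -1.38, MKI67 and PLK1 at -1.36 and BUB1 at -1.33, and all 10 were lower in each of the 3 runs. Their part in the levels of the subunits was not tested. Of the partners, osteopontin (SPP1), a ligand of ITGAV and ITGB3, rose by 1.95 (SE 0.42, limma adjusted p = 0.0126). LTBP1, which holds latent TGFβ in the matrix and presents it to integrins, rose by 1.06 (limma adjusted p = 0.0428), and netrin NTN4, which binds laminin gamma chains, by 1.05 (limma adjusted p = 0.0396). These were 2 of 20 tested ligands and 1 of 16 tested basement membrane partners, and 0 of 30 tested adhesion plaque genes passed. In the other 3 drug comparisons no gene of these 3 lists passed.

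In A549 the changes of the subunits with Pirfenidone lay on both sides of 0. Their median log2 fold change was -0.06 at 6 h, between -0.42 for LAMA4 and 0.38 for ITGA2, and -0.01 at 24 h, between -0.74 for LAMA1 and 0.33 for ITGA2. At 24 h the pairs differed by run. In run 1 9 subunits were higher and 24 lower with Pirfenidone (median -0.35), in run 2 21 were higher and 12 lower (median 0.04) and in run 3 18 of 32 were higher and 14 lower (median 0.06). Without the pair of run 1 the median at 24 h was 0.09, between -1.11 for LAMA1 and 1.06 for ITGB8, with ITGA2 at 0.98, and the number that passed was still 0 in A549. LAMA1 was on no A549 array well above background. It was 2 in H1975, where the pair enters only through the common estimate of the spread, with ITGB3 and ITGAX (limma adjusted p = 0.0384).

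Between the time points no subunit passed. Between 6 h and 24 h of PBS, 0 subunits passed in A549 and 0 in H1975, where 0.109% and 0.315% of all probes did, and 0 and 2 had an unadjusted limma p under 0.05, beside 8.49% and 10.6% of all probes. The 2 in H1975 were ITGA7, a laminin receptor subunit of muscle, and ITGB7, the beta subunit of lymphocyte homing receptors, each higher by 0.56 at 24 h (limma adjusted p = 0.258 and 0.402). The dimmer LAMA5 probe was 1.13 higher at 24 h in H1975 (limma adjusted p = 0.0576, and 0.00688 with run as a block).

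Several subunits differed between the runs. After this was seen, run 1 was compared with the other runs in each line, within the same groups. The difference among the other runs was fitted as well. The SE and p-values of this comparison therefore measure the spread between arrays within runs and not the spread between runs. They cannot show whether run 1 is unusual among runs. In H1975 5 subunits were higher in run 1 and 3 lower, where 5.76% of all probes passed in either direction. ITGB6 was higher by 2.29 (SE 0.11, limma adjusted p = 3.19e-06), from -3.28 over -3.05 to -2.92 on the 4 arrays of run 1 and from -5.82 over -5.33 to -4.91 on the 8 others. Also higher were ITGB2 by 1.38, ITGA9 by 1.23 and ITGB8 by 1.21, and those that were lower were ITGA1 at -1.15, ITGA11 at -1.07 and LAMA1 at -1.04. ITGB6 and ITGB8 are the partners of ITGAV that activate TGFβ, ITGA9 is a tenascin receptor subunit and ITGA1 binds collagen. With another background correction (normexp) 3 of the 8 remained past the threshold, ITGB2 and ITGA1 among them. There ITGB6 was 1.37 (limma adjusted p = 0.108), ITGA9 0.28 and ITGB8 0.13. All H1975 samples of run 1 lay on 1 slide, so run and slide cannot be told apart.

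In A549 2 subunits were higher in run 1 and 2 lower, where 1.80% of all probes passed. These were ITGB8 at 1.68 (SE 0.40, limma adjusted p = 0.0368) and LAMB3 at 1.09 (SE 0.16, limma adjusted p = 0.00592), and LAMA4 at -2.21 (SE 0.13, limma adjusted p = 8e-05) and ITGA11 at -1.27 (SE 0.10, limma adjusted p = 3.32e-04). LAMA4 ran from -5.66 over -5.30 to -4.99 on the 4 arrays of run 1 and from -3.60 over -3.11 to -2.70 on the others, without overlap. ITGB8 was well above background on 3 of 12 A549 arrays, all of run 1, so its difference there is against signals near background, and without the 24 h pair of run 1 its call was lost (1.57, limma adjusted p = 0.0728). ITGB8 and ITGA11 passed in both lines with the same direction. With normexp correction ITGB8 was 0.23 in A549 and passed in neither line, and ITGA11 was -1.08 in A549 and -0.99 in H1975, there just short of the fold limit. Each run held all conditions of a line, so the values within runs given above for the drug are free of the difference between runs. They are not free of the place on the slide, which was fixed by treatment and time. In run 3 the H1975 PBS and Pirfenidone samples of 24 h also differed in slide and scan day, so their difference carries both.

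**Figure D5:**
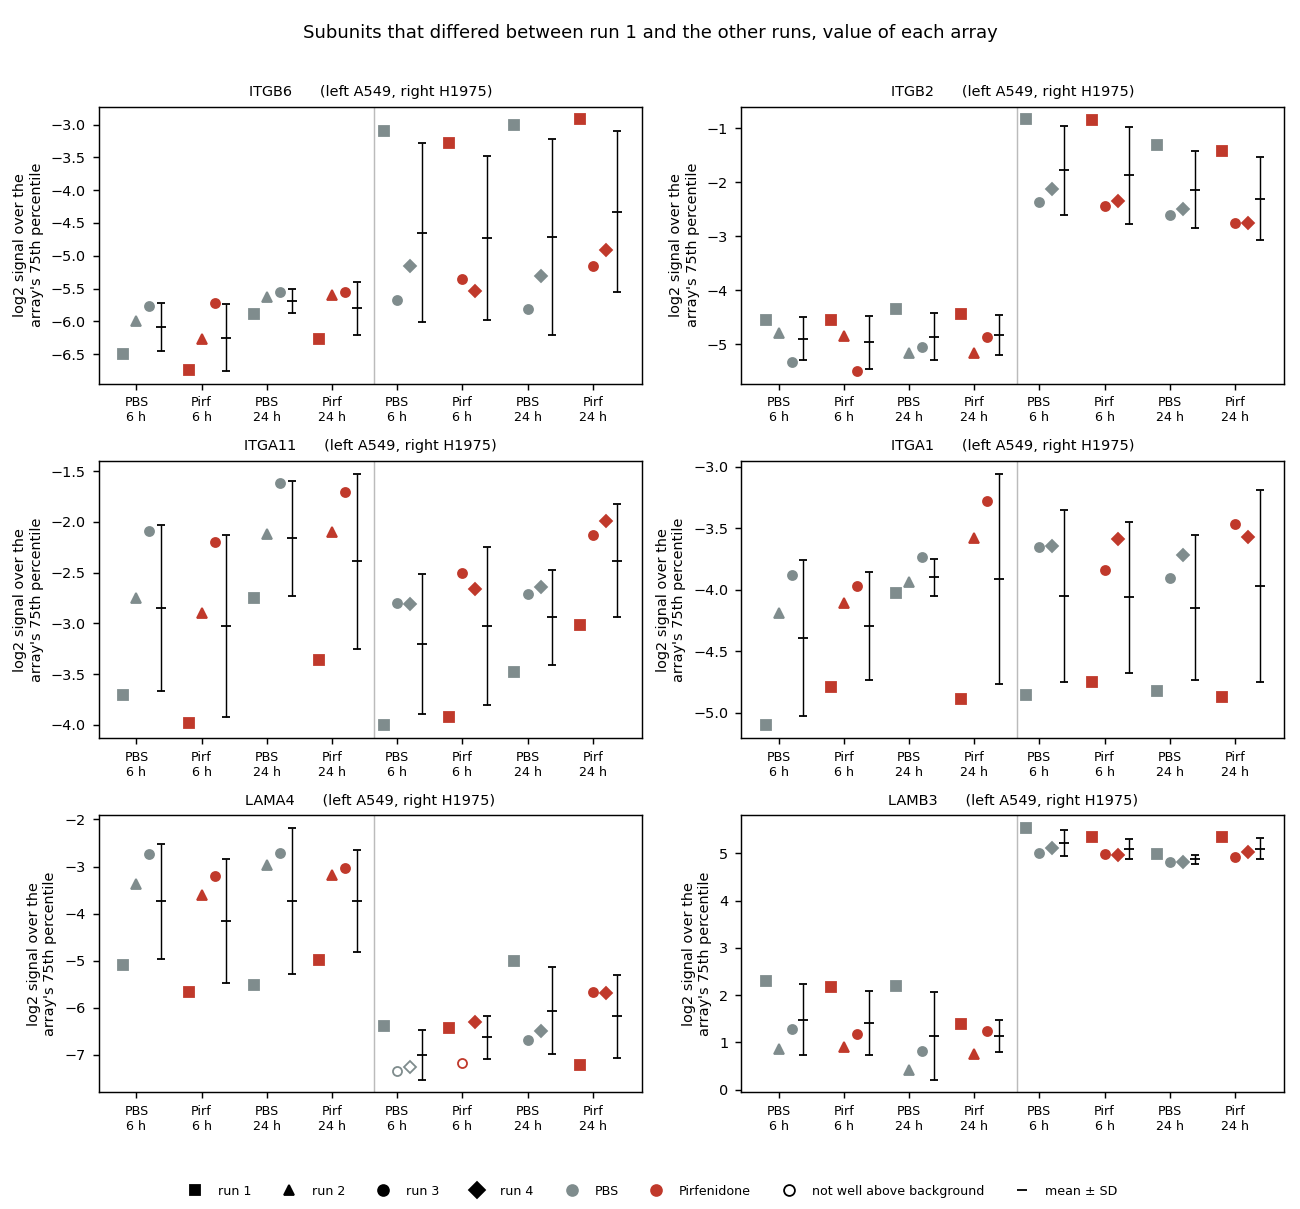
Level of 6 subunits that differed between run 1 and the other runs. The vertical axes are normalized log2 signals, gray marks are PBS and red marks Pirfenidone (Pirf), squares are run 1, open marks were not well above background, and black bars are the mean and SD of the 3 arrays. In H1975 the run 1 arrays of ITGB6 and ITGB2 lie above and those of ITGA1 and ITGA11 below the other runs in every condition, and in A549 the run 1 arrays of LAMA4 lie below and those of LAMB3 above.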

How the data were processed

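The authors extracted total RNA, labeled it with Cy3 and read 24 one-color arrays with Agilent Feature Extraction. In the deposited scanner files each spot has an intensity with its background subtracted. The authors also deposited a table of log2 values of the same arrays, centered on each probe's median, with column medians from -0.162 to 0.155, used as an alternative.

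Groups came from the sample labels. Processed signals were put on the log2 scale and lowered by their array's 75th percentile over 43118 spots, outlier spots were dropped and spots of a probe averaged. limma version 3.58.1 in R version 4.3.3 fitted 8 groups at once, with 16 residual degrees of freedom, to the 23827 of 34127 probes that stood well above background on each of the 3 arrays of 1 or more groups. Benjamini-Hochberg adjustment replaced the Westfall-Young permutation of the study's methods, which cannot reach 0.05 with 3 arrays against 3. The number of arrays limits the precision. On simulated data with 23827 probes, 76% to 84% of changes of 1.5 and 87% to 94% of changes of 2 (log2) were recovered in the 4 drug comparisons. The simulated noise was independent between arrays, without run or slide. The largest change of a subunit with Pirfenidone was 1.28, so recovery of changes of that size was not measured.

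The members, partner lists and markers were chosen with earlier results of these data known. Described with array values are passing members or, with fewer than 6, those of the 10 lowest p in a drug comparison with each of the 6 arrays well above background, and the 5 largest passing line differences in each direction. Partners are named where they passed, at most the 4 largest of a list. Runs were told apart by the date each file carries. Alternatives were quantile normalization, normexp correction (offset 50), the authors' values, other filters, the replicate number, run, slide or scan day as a block, only the arrays compared, the mean of a gene's probes, no fold limit, and arrays left out. The values of 2 genes are not reported here, and counts include them.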

Additional observations from a re-analysis of the deposited data

How the results depend on the processing

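Same-numbered PBS and Pirfenidone samples correlated at 0.58 to 0.70 in A549 at 6 h and 0.46 to 0.72 in H1975 at 24 h, but at -0.10 to 0.39 in A549 at 24 h and -0.68 to 0.43 in H1975 at 6 h, so replicate numbers did not pair the samples throughout. Samples of the same run correlated at 0.50 to 0.82 in H1975 at 6 h, and elsewhere as the same-numbered ones did. The main fit took no account of run. With the replicate number as a block 1 subunit passed in H1975 at 24 h, 16 for the line difference and 0 in each other drug, time and interaction comparison.

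Counts of passing subunits moved by more than 1.5 times in these cases. In H1975 at 24 h, 3 passed with run as a block, 2 without the run 1 pair of A549 at 24 h, 13 with run and 7 with slide as a block and no fold limit, and 0 to 2 with 1 array left out (0 without the Pirfenidone sample of replicate 3, and 2, with ITGAX, without that of replicate 2). In H1975 at 6 h 1 passed with run or slide as a block and no fold limit. For the difference between lines at 24 h 1 passed with run as a block, and 5 without the fold limit as well. With no fold limit, 2 passed between times in A549 with run or slide as a block, and 4 with run and 1 with slide in H1975. For the line difference 26 passed without the fold limit, 26 with run as a block as well, and 13 to 17 with 1 array left out. For run 1 in A549 2 passed when probes had to stand well above background on every array, 12 without the fold limit and 3 to 5 with 1 array left out. For run 1 in H1975 3 passed with normexp correction, 5 under the same filter, 22 without the fold limit and 7 to 10 with 1 array left out. In every other comparison 0 passed with any 1 array left out. Of the values of described subunits under the alternatives, 807 kept direction and side of the threshold, 0 reversed, 2 fell short (ITGB3 in H1975 at 24 h without the Pirfenidone sample of replicate 3, and LAMA1 between lines with normexp) and 2 passed (ITGA2 in H1975 at 24 h and ITGB3 between lines, both with run as a block). ITGB3 in H1975 at 24 h lay between 1.07 and 1.40 over 20 settings, with adjusted p from 0.00419 to 0.096. The causes were not tested. Signals near background limit the dim subunits, LAMA1, ITGAM, ITGAX and ITGB8 among them.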
